A study of Mus musculus with 8 samples.

Results

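Insulin-like growth factor 1 (Igf1) and 6 genes of the IGF-binding protein family (Igfbp2, Igfbp3, Igfbp4, Igfbp5, Igfbp6 and Igfbp7) were followed in brown adipose tissue (BAT), which burns fat to make heat. These 7 genes were chosen by name among the 31053 genes of the deposited count table, by a rule that applies no threshold on measured values, although earlier results of these data were known when they were chosen. Of the 7, 6 were detected and passed the filter on low counts together with 9264 genes in all, and Igfbp2 had 0 counts in every library.

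BAT was profiled by bulk RNA-seq in 4 samples from wild-type (WT) mice and 4 from db/db mice, all 8 weeks old. Per the study's methods, the WT mice were C57BL6/J and the db/db line was B6.BKS(D)-Leprdb/J. The methods also give all mice as male, fed a normal diet and killed after a fast. The db/db mice carry a germline mutation of the leptin receptor gene Lepr in all cells, overeat and become obese and diabetic, so that effects of lost leptin signalling in BAT, of obesity and of diabetes cannot be told apart. The study's methods and its list of materials name different suppliers for the WT mice, so it is unclear whether supplier changed along with genotype. For the db/db mice that list gives a stock number and no line name, so it is also unclear whether both genotypes share a strain background. The labels do not tie the libraries to animals, while the study describes this comparison with as many mice per genotype as there are libraries, so the p-values measure the spread between these samples and probably between mice.

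Total counts per library ran from 2374079 to 3240074. Lepr had 0 counts in all 8 libraries and could not be used to check the genotype. The labels name the cell type as the stromal vascular fraction, the cells left after adipocytes are removed, but 8 brown adipocyte genes including Ucp1, Cidea and Adipoq summed to 15318 to 21414 CPM (counts scaled to a library total of 1000000) in WT and 16526 to 22332 CPM in db/db, so the libraries are described here as BAT. In db/db, the sum of 10 skeletal muscle genes reached 2353 to 11665 CPM, against 434 to 1540 CPM in WT, and was highest in db/db replicate 1.

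IGF1 is a peptide hormone, made by the liver and also within adipose and many other tissues, largely under the control of growth hormone acting through JAK2 and STAT5. In blood and tissue fluid most of it is held by IGF-binding proteins, which keep it from the IGF1 receptor or deliver it there, and proteases that cut the binding proteins set it free. IGFBP3 and IGFBP5 carry IGF1 in a large circulating complex, IGFBP4 mainly restrains IGF action, IGFBP6 prefers IGF2, and IGFBP7 binds IGFs only weakly. In adipose tissue, binding proteins are made by stromal and vascular cells as well as by adipocytes.

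The members lie at 6 places in the mm10 genome (GENCODE M21 annotation). Igf1 (ENSMUSG00000020053) is on chromosome 10 at 87858265 to 87937042 on the plus strand. Igfbp2 (ENSMUSG00000039323, chromosome 1, 72824503 to 72852474, plus strand) and Igfbp5 (ENSMUSG00000026185, chromosome 1, 72857932 to 72874884, minus strand) are neighbours that face each other across 5457 bp, and at this locus only Igfbp5 was detected. Igfbp3 (ENSMUSG00000020427, chromosome 11, 7206086 to 7213923, minus strand) faces Igfbp1 in the same way across 3539 bp, and there only Igfbp3 was detected. Igfbp4 (ENSMUSG00000017493) is at 99041244 to 99054392 of chromosome 11 on the plus strand. Igfbp6 (ENSMUSG00000023046) is at 102144362 to 102149511 of chromosome 15 on the plus strand. Igfbp7 (ENSMUSG00000036256) is at 77349240 to 77408041 of chromosome 5 on the minus strand, and its exons overlap those of Polr2b on the other strand. The counting is not stated to use strand, so the Igfbp7 counts are uncertain. Polr2b itself was at 20.9 ± 2.62 CPM in WT and 20.7 ± 4.58 CPM in db/db (± SD over 4 libraries per genotype).

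Of the 6 detected members, 5 rose in db/db, and Igf1 did not pass the test for a genotype difference, which does not show that it stayed level. The 100 bases before the transcription start are shown for these 6, so that their start regions can be compared. They are from RefSeq on GRCm38.p6, are written 5′ to 3′ on the strand of the gene, and end just before the start. Capitals mark 5 words searched on both strands. TATAAA is the usual TATA box, and the variants TATATA as well as TTTAAA may overlap it, while CCAAT gives the CCAAT box its name, and GGGCGG is the GC box.
Igf1 (chr10:87861011-87861110, plus strand): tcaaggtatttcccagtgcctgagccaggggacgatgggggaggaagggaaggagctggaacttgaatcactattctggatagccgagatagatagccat
Igfbp3 (chr11:7213924-7214023, minus strand): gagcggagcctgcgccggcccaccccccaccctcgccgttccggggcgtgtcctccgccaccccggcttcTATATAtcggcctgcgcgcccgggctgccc
Igfbp4 (chr11:99041144-99041243, plus strand): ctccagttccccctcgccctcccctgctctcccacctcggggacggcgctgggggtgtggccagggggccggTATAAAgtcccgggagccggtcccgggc
Igfbp5 (chr1:72874866-72874965, minus strand): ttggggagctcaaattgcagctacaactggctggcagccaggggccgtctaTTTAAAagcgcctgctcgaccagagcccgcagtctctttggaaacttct
Igfbp6 (chr15:102144086-102144185, plus strand): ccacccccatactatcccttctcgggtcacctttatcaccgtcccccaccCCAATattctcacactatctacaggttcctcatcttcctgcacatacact
Igfbp7 (chr5:77408046-77408145, minus strand): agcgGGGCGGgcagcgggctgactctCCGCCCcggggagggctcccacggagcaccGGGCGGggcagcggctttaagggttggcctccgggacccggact

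The start regions had no searched word in common. Igfbp3 held TATATA beginning 30 bases before its start, Igfbp4 held TATAAA at 28 bases and Igfbp5 held TTTAAA at 49 bases. Igfbp6 held CCAAT at 50 bases, Igfbp7 held the GC box at 96, 74 and 44 bases, and none of the 5 words was found in the Igf1 window. Among the same windows of 32851 RefSeq promoters, TATATA was present in 2.19%, TTTAAA in 4.39%, TATAAA in 5.56%, CCAAT in 18.9% and GGGCGG in 24.7%. The RefSeq start is the first base of the GENCODE gene for Igfbp3 and Igfbp4 only. For Igfbp5 it lies 19 bases further into the gene, so that TTTAAA begins 30 bases before the GENCODE start, for Igf1 it lies 2846 bases further in, and for Igfbp7 and Igfbp6 it lies 4 and 176 bases before the GENCODE start. A match is a description of these letters and not evidence of a bound site.

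To find out whether local Igf1 and its binding proteins differ in BAT of db/db mice, each gene was compared between the genotypes. The binding proteins rose while Igf1 did not pass the test. Of the 6 members tested, 5 rose in db/db, namely Igfbp3, Igfbp4, Igfbp5, Igfbp6 and Igfbp7, where 15.8% of all genes tested were higher. Their log2 fold changes ran from 0.79 to 1.85 with a median of 1.39, beside a median of 0.01 over all genes tested. In 3 members, Igfbp4, Igfbp5 and Igfbp6, every db/db library was above every WT library, as in 15.3% of all genes. In bulk tissue, more cells of a type and more RNA of a gene per cell cannot be told apart.

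Igf1, the ligand, was at 70.8, 27.4, 130.4 and 47.1 CPM in WT replicates 1 to 4 and at 100.5, 69.7, 36.8 and 73.7 CPM in db/db replicates 1 to 4. The WT libraries held both the lowest and the highest value, and the groups overlapped completely. The mean level was 68.9 ± 44.6 CPM in WT and 70.1 ± 26.1 CPM in db/db (± SD over 4 libraries per genotype). The log2 fold change was 0.03 (SE 0.34, edgeR adjusted p 0.963), and its 95% interval from -0.69 to 0.75 leaves room for a sizeable difference in either direction. Without WT replicate 3, the library with the most Igf1, the log2 fold change was 0.52 (edgeR adjusted p 0.228), and leaving out any library in turn gave values from -0.25 to 0.52, none past the threshold.

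Igfbp2, which in adults is prominent in liver and is lowered in obesity, had 0 counts in all 8 libraries. A count of 0 allows a level of up to 0.902 to 1.33 CPM, depending on the library. Igfbp2 is therefore at most a small fraction of the binding protein transcripts in these samples.

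Igfbp3, the main carrier of IGF1 in blood, was at 7.28, 11.4, 15.03 and 9.76 CPM in WT and at 21.1, 25.8, 28.4 and 12.6 CPM in db/db. In db/db, 3 libraries were above every WT library, and replicate 4 lay among the WT values. Igfbp3 rose by a log2 fold change of 1.003 (SE 0.28, edgeR adjusted p 0.0127).

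Igfbp4, which holds IGF1 until the protease PAPP-A cuts it, was at 43.7, 29.5, 69.5 and 32.3 CPM in WT and at 139.6, 100.5, 135.2 and 85.6 CPM in db/db. The groups did not overlap, and WT replicate 3 came nearest to db/db. Igfbp4 rose by a log2 fold change of 1.39 (SE 0.23, edgeR adjusted p 0.000223).

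Igfbp5, which binds to extracellular matrix, was at 40.5, 17.7, 31.6 and 25.0 CPM in WT and at 121.2, 113.6, 93.1 and 61.8 CPM in db/db. All db/db libraries were above all WT libraries, with replicate 4 the lowest of them. Igfbp5 rose by a log2 fold change of 1.76 (SE 0.23, edgeR adjusted p 2.72e-05), the smallest adjusted p among the members.

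Igfbp6, the binding protein with a preference for IGF2, was at 7.69, 4.22, 4.51 and 5.52 CPM in WT, which corresponds to 10 to 19 counts per library. In db/db it was at 29.8, 22.9, 12.0 and 13.8 CPM. The groups did not overlap, although db/db replicates 3 and 4 were well below replicates 1 and 2. Igfbp6 had the highest fitted change of the members, a log2 fold change of 1.85 (SE 0.33, edgeR adjusted p 0.000425), and an interval of 1.15 to 2.55 that overlaps those of the other 4 binding proteins tested.

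Igfbp7, a secreted protein of vessels and stroma, was at 58.3, 65.4, 109.0 and 59.4 CPM in WT and at 175.1, 120.9, 82.4 and 127.2 CPM in db/db. WT replicate 3 was above db/db replicate 3, so the groups overlapped, and the other 3 db/db libraries were above every WT library. Igfbp7 rose by a log2 fold change of 0.79 (SE 0.22, edgeR adjusted p 0.0121), the smallest change among the binding proteins.

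**Figure D1:**
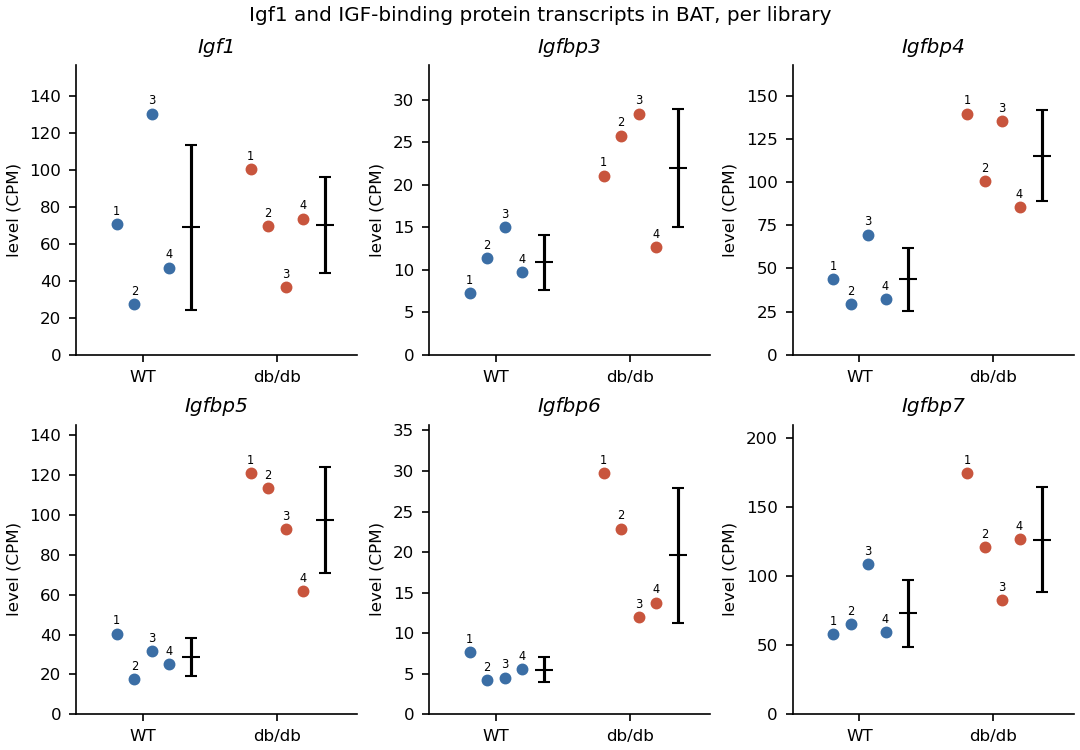
Level of the 6 detected members in CPM (vertical axes, linear from 0, each panel with its own scale) in the 4 WT (blue) and 4 db/db (red) libraries, numbered by replicate, with the mean and SD of each group as a bar. The points of Igf1 overlap throughout, those of Igfbp4, Igfbp5 and Igfbp6 are separate, and 1 db/db library each of Igfbp3 and Igfbp7 lies among the WT values.

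Levels of different genes were compared as CPM per kilobase of exon (CPM/kb). In WT the order of mean levels was Igfbp7 at 60.4 ± 19.99, Igfbp4 at 9.91 ± 4.13, Igf1 at 6.96 ± 4.51, Igfbp6 at 4.93 ± 1.41, Igfbp5 at 4.78 ± 1.61 and Igfbp3 at 3.47 ± 1.04 CPM/kb (SD, n = 4). Igfbp7 was apart from the rest, and every other pair of neighbours in that order overlapped between libraries. In db/db the order was Igfbp7 at 104.6 ± 31.4, Igfbp4 at 26.1 ± 5.97, Igfbp6 at 17.6 ± 7.47, Igfbp5 at 16.2 ± 4.43, Igf1 at 7.08 ± 2.64 and Igfbp3 at 7.02 ± 2.21 CPM/kb (SD, n = 4). Igf1 thus moved from place 3 to place 5 as Igfbp6 and Igfbp5 passed it. In db/db Igfbp7 and Igfbp4 were separate, as narrowly were Igfbp5 and Igf1, while the other neighbours overlapped. Without the division by length, Igf1 was in place 2 in WT and in place 4 in db/db, and Igfbp6 was last in both. It is not stated whether the reads cover whole transcripts or one end of them, and in the latter case the order without length would be the fitting one.

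Within each library, the counts of the 5 detected binding proteins were also set against those of Igf1, a ratio that does not depend on the scaling between libraries. Summed, they came to 2.22, 4.68, 1.76 and 2.80 counts per Igf1 count in WT and to 4.84, 5.51, 9.54 and 4.09 in db/db. The means were 2.87 ± 1.28 in WT and 5.99 ± 2.44 in db/db (± SD over 4 libraries per genotype), and WT replicate 2, the library with the least Igf1, lay within the db/db range. The summed level of the 5 binding proteins was 128.3 to 229.6 CPM in WT and 300.9 to 486.7 CPM in db/db, with no overlap. Igfbp7 made up 71.9% ± 4.97 of the binding protein transcripts per length in WT and 60.5% ± 7.84 in db/db (± SD over 4 libraries per genotype). Without the division by length, its share of the counts was 37.0, 51.0, 47.5 and 45.0% in WT and 36.0, 31.5, 23.5 and 42.3% in db/db. In db/db replicate 3, Igfbp4 held more of the counts, at 38.5%.

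Taken gene by gene, the ratio to Igf1 separated the genotypes for 3 of the 5 binding proteins, the same 3 that did not overlap in CPM. The share of all genes that this ratio would separate was not computed, so the count has no background beside it. Igfbp4 had 0.533 to 1.08 counts per Igf1 count in WT and 1.16 to 3.67 in db/db. Igfbp5 had 0.242 to 0.646 in WT and 0.838 to 2.53 in db/db, and Igfbp6 had 0.0346 to 0.154 in WT and 0.187 to 0.329 in db/db. None of these ranges overlapped. Igfbp3, at 0.103 to 0.415 in WT and 0.172 to 0.771 in db/db, overlapped, and so did Igfbp7, at 0.823 to 2.38 in WT and 1.73 to 2.24 in db/db.

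**Figure D2:**
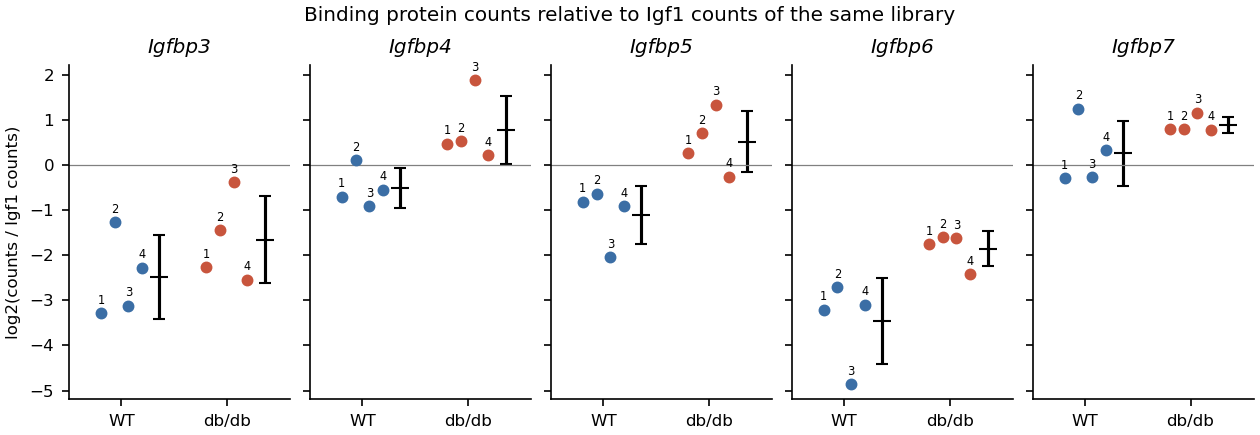
Counts of each detected binding protein divided by the Igf1 counts of the same library (vertical axis, log2 scale, where 0 means equal counts) in the 4 WT (blue) and 4 db/db (red) libraries, numbered by replicate, with the mean and SD of each group as a bar. The ratios of Igfbp4, Igfbp5 and Igfbp6 are higher in all 4 db/db libraries than in any WT library, while those of Igfbp3 and Igfbp7 overlap.

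The members also differed in how they varied from library to library. Measured by the root mean square difference of their log2 CPM over the 8 libraries, each centred on its own mean, Igfbp5 and Igfbp6 were the pair most alike (0.31), followed by Igfbp4 and Igfbp5 (0.37). Igf1 and Igfbp5 were the pair least alike (0.98). The member nearest to Igf1 was Igfbp7 (0.55). Both were highest within WT in replicate 3, as were Igfbp3 and Igfbp4.

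By the same measure, among 4531 genes with a mean of at least 20 CPM, the genes nearest to Igfbp6 were Col6a2 (0.20) and Col1a1 (0.22), which encode microfibrillar and fibrillar collagen chains, Col1a1 being also one of the fibroblast markers used here. Igfbp4 was nearest to Gsn (0.16) and Gab2 (0.19), and Igfbp5 to Itih5 (0.23) and Lpgat1 (0.26). Igfbp7 was nearest to Orm1 (0.17) and Lrpap1 (0.19), Igfbp3 to Nr1d1 (0.22) and Ryk (0.24), and Igf1 to Car5b (0.31) and Retn (0.32). Igf1 thus had no gene as near to it as those of the binding proteins.

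Markers of several cell types moved with the binding proteins. The summed level of 10 progenitor and fibroblast markers was 575.7 to 676.8 CPM in WT and 1029 to 2128 CPM in db/db, and 8 of the 10 (Pdgfra, Dpp4, Pi16, Cd34, Dcn, Lum, Col1a1 and Col3a1) rose. Of 10 macrophage markers, summing to 147.3 to 195.5 CPM in WT and 676.7 to 1214 CPM in db/db, 8 of 9 tested rose. Of 8 mural cell markers, at 220.2 to 260.8 CPM in WT and 356.0 to 461.5 CPM in db/db, 3 of 7 tested rose, and of 6 Schwann cell markers, at 99.95 to 177.7 CPM in WT and 330.0 to 538.3 CPM in db/db, 2 of 3 tested rose. S100b made up most of that sum, and the others overlapped between the genotypes at 6.39 to 24.3 CPM in WT and 14.95 to 54.8 CPM in db/db. All 10 skeletal muscle markers rose.

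Some endothelial and brown adipocyte markers fell. Of 10 endothelial markers, Kdr, Emcn and Tek fell, Cd36, which macrophages and adipocytes also express, rose, and the other 6 did not pass the test. Their sum was 838.2 to 921.0 CPM in WT and 848.9 to 1028 CPM in db/db, but without Cd36 it was 449.0 to 503.8 CPM in WT and 332.8 to 380.0 CPM in db/db, with no overlap. Of 8 brown adipocyte markers, 7 were tested. Ucp1, Cidea, Ppargc1a and Cox8b fell, and Plin1 and Fabp4 rose, while Adipoq did not pass. Without Fabp4, the most abundant of them, the brown adipocyte sum was 9550 to 11415 CPM in WT and 6061 to 8227 CPM in db/db, again with no overlap. The sums without the most abundant gene were taken after the values were seen. Of 5 mesothelial markers, summing to 4.88 to 8.44 CPM in WT and 0.636 to 1.80 CPM in db/db, Lrrn4 made up most of the level and fell (log2 fold change -2.68, edgeR adjusted p 0.000524), and Upk3b and Wt1 were at 0 in all libraries.

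Set against the fibroblast markers, the binding proteins as a sum did not separate the genotypes. Per 100 counts of the 10 progenitor and fibroblast markers, the 5 binding proteins had 22.3 to 33.9 counts in WT and 22.9 to 34.1 counts in db/db. The single genes differed in this respect. Igfbp6 remained just separate, at 0.666 to 1.15 in WT and 1.16 to 1.55 in db/db per 100 marker counts. Igfbp5, at 3.08 to 6.05 in WT and 5.33 to 9.05 in db/db, overlapped only through WT replicate 1. Igfbp4, at 5.13 to 10.3 in WT and 6.56 to 13.1 in db/db, overlapped only through WT replicate 3. Igfbp7 and Igfbp3 leaned the other way, Igfbp7 at 8.72 to 16.1 in WT and 8.01 to 10.99 in db/db with medians of 10.8 and 8.19, and Igfbp3 at 1.09 to 2.22 and 0.990 to 2.76 with medians of 1.83 and 1.42, and both overlapped. Igf1 was at 4.77 to 19.3 in WT and 3.58 to 6.36 in db/db, so its median per 100 marker counts was 9.36 in WT and 4.71 in db/db.

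**Figure D3:**
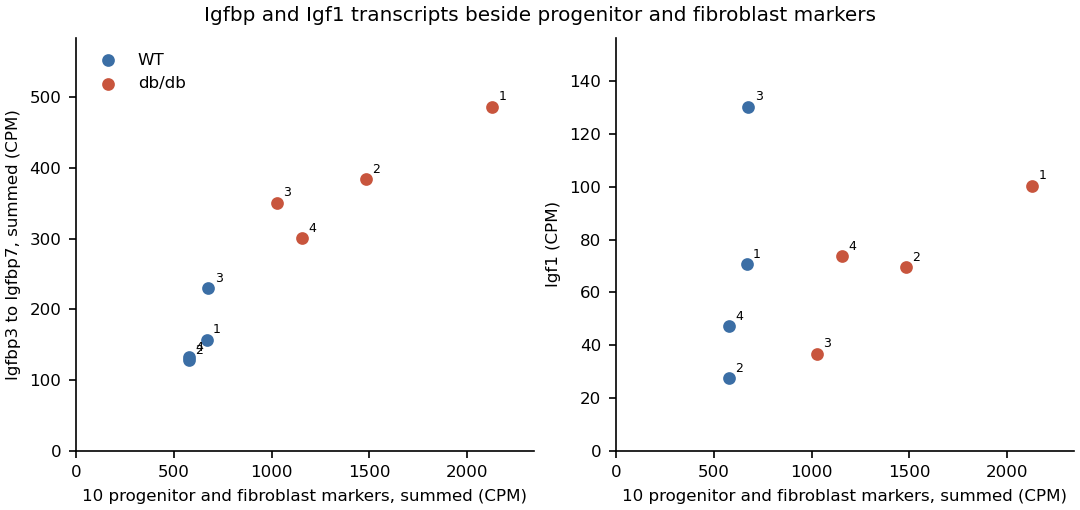
Summed level of Igfbp3 to Igfbp7 (left) and level of Igf1 (right), in CPM, against the summed level of 10 progenitor and fibroblast markers in CPM, 1 point per library, WT blue and db/db red, numbered by replicate. The 4 db/db libraries lie at or above 1029 CPM of markers and 300.9 CPM of binding proteins, the WT libraries at or below 676.8 and 229.6 CPM, and Igf1 shows no such split.

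Adding a cell type's marker score to the fit ended most calls. With the skeletal muscle score, 1 member was still called, Igfbp5 (log2 fold change 1.57, edgeR adjusted p 0.0455), and 3 passed an unadjusted p of 0.05. The 4 lost calls kept their direction in that fit, with log2 fold changes of 0.65 for Igfbp3, 1.13 for Igfbp4, 1.25 for Igfbp6 and 0.52 for Igfbp7 (edgeR adjusted p 0.627, 0.184, 0.293 and 0.591). With the progenitor and fibroblast score or with the macrophage score, both chosen after seeing the data, edgeR called 0 members at the adjusted threshold. At an unadjusted p of 0.05 the fibroblast score left Igfbp5 higher and Igf1 lower, and the macrophage score left Igf1 lower. In these fits the log2 fold change turned negative for Igfbp7 (-0.33 with the fibroblast score and -1.26 with the macrophage score) and, with the macrophage score, for Igfbp4 (-0.20), while Igfbp3 (0.96 and 1.81), Igfbp5 (0.96 and 0.62) and Igfbp6 (0.46 and 0.16) kept their direction. The log2 fold change of Igf1 was -1.62 with the fibroblast score (edgeR adjusted p 0.188) and -4.09 with the macrophage score (edgeR adjusted p 0.0611), against 0.03 without a score. None of the 3 summed marker levels overlapped between the genotypes, and over all genes these fits left 401, 245 and 18 calls of 2568. The part of cell composition in the rise of the binding proteins cannot be told apart from genotype in these 8 libraries.

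Other genes of the IGF axis were then read from the same fit. Of 41 such genes, 26 were tested and 11 passed, where 27.7% of all genes did: 5 were higher (Htra1, Ghr, Lrp1, Itgb1 and Ccn5) and 6 were lower (Insr, Stat5a, Socs2, Cish, Irs2 and Akt2), beside 15.8% higher and 11.9% lower among all genes tested. The median log2 fold change of the 26 was 0.09. With the skeletal muscle score in the fit, Socs2, Irs2 and Ccn5 were still called by edgeR and the other 8 were not, among them Insr (log2 fold change -0.95, adjusted p 0.239), Htra1 (1.17, adjusted p 0.134), Ghr (0.88, adjusted p 0.132), Itgb1 (0.43, adjusted p 0.416) and Cish (-0.41, adjusted p 0.853). All 8 kept their direction. With the fibroblast score only Ccn5 was still called by edgeR, and with the macrophage score 0 of the 26 were, with 2 and 4 at an unadjusted p of 0.05. The log2 fold changes of Htra1 (-0.59) and Stat5a (0.53) turned with the macrophage score and that of Akt2 (0.11) with the fibroblast score, while Socs2 (-1.71 and -1.83) and Irs2 kept their direction without passing. Among the other ligands and carriers, Igf2 had 0 to 1 counts in WT and 0 to 2 in db/db. Igf2 shares exons with a gene on its own strand and with one on the other strand, so its count is uncertain. Igfbp1 and Igfbpl1 had none. Igfals, which encodes the third partner of the circulating complex, had 4 to 17 counts in WT and 4 to 7 in db/db, too few for the filter. In a fit of every gene with a count Igfals did not pass (log2 fold change -1.25, edgeR adjusted p 0.107).

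Of the receptors, that of IGF1 itself gave no call and that of insulin fell. Igf1r was at 20.6 ± 4.65 CPM in WT and 21.98 ± 4.38 CPM in db/db (± SD over 4 libraries per genotype), with a log2 fold change of 0.08 (SE 0.22, edgeR adjusted p 0.818) and a 95% interval of -0.38 to 0.55. Igf2r, which clears IGF2, had a log2 fold change of 0.18 (edgeR adjusted p 0.566). Insr was at 42.9, 43.9, 38.7 and 34.4 CPM in WT and at 19.6, 20.04, 28.4 and 15.6 CPM in db/db. Every db/db library was below every WT library. Insr fell with a log2 fold change of -0.94 (SE 0.20, edgeR adjusted p 0.00147).

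Among genes that act on the binding proteins, Htra1, a secreted serine protease that cuts IGFBP5, rose with its substrate's transcript. It was at 18.2, 12.7, 16.9 and 16.1 CPM in WT and at 68.9, 44.9, 29.3 and 46.5 CPM in db/db, without overlap (log2 fold change 1.57, SE 0.24, edgeR adjusted p 8.39e-05). Pappa, the protease of IGFBP4, had 1 to 5 counts in WT and 0 to 1 in db/db and did not pass the filter. In a fit of every gene with a count it leaned lower without passing (log2 fold change -3.37, edgeR adjusted p 0.0674). Stc2, an inhibitor of PAPP-A, had 0 counts in every WT library and 4 to 10 in db/db and did not pass the filter. When every gene with a count was tested it was higher (edgeR adjusted p 0.000653). Its mean in db/db, 2.53 CPM, was at least 1.99-fold higher than WT, taking the WT libraries at the highest of their 3-count floors, 1.27 CPM, while the lowest db/db library was at that floor. Pappa2, which shares exons with a gene on its own strand, and Adam28 had 0 counts throughout.

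The growth hormone axis, which drives Igf1 transcription, moved in 2 directions. The receptor gene Ghr was at 141.2, 98.8, 142.8 and 109.1 CPM in WT and at 234.9, 240.5, 258.0 and 173.7 CPM in db/db. The groups did not overlap, and Ghr rose by a log2 fold change of 0.88 (SE 0.16, edgeR adjusted p 0.000433). Socs2, a growth hormone target that encodes a feedback inhibitor of the receptor, was at 21.4, 18.1, 20.3 and 30.1 CPM in WT and at 6.32, 7.95, 3.99 and 5.95 CPM in db/db. It was lower in all 4 db/db libraries and fell with a log2 fold change of -1.86 (SE 0.27, edgeR adjusted p 6.09e-05).

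Cish, another STAT5 target and feedback inhibitor, was at 19.8, 51.9, 54.9 and 33.1 CPM in WT and at 10.2, 25.1, 0.887 and 26.8 CPM in db/db, so the groups overlapped. Its call (log2 fold change -1.32, SE 0.47, edgeR adjusted p 0.0430) was lost with DESeq2 (adjusted p 0.273) and when any 1 of WT replicates 2, 3 or 4 or db/db replicates 1 or 3 was left out. Stat5a fell with a log2 fold change of -0.76 (SE 0.24, edgeR adjusted p 0.0226) without overlap, a call lost without WT replicate 1 or 4 or db/db replicate 1 or 4 (edgeR adjusted p 0.0557 to 0.0642). Cish and Stat5a share exons with genes on the other strand and are uncertain. Stat5b and Jak2 gave no call (edgeR adjusted p 0.4996 and 0.371).

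**Figure D4:**
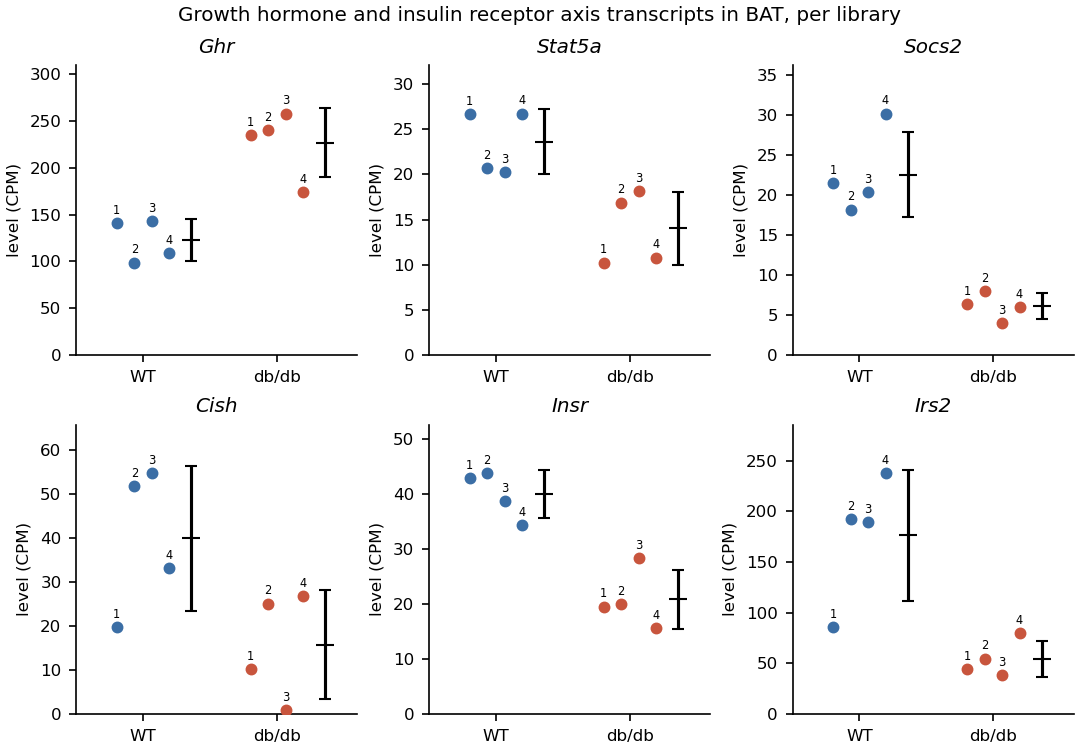
Level in CPM (vertical axes, linear from 0, each panel with its own scale) of 4 growth hormone axis genes and of Insr and Irs2 in the 4 WT (blue) and 4 db/db (red) libraries, numbered by replicate, with the mean and SD of each group as a bar. Ghr is higher and Stat5a, Socs2, Insr and Irs2 are lower in all 4 db/db libraries than in any WT library, while Cish overlaps.

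Downstream of the IGF1 and insulin receptors, 2 of 10 genes passed, both lower, beside 27.7% of all genes tested. Irs2, an adaptor that both receptors phosphorylate, was at 85.8, 192.4, 189.8 and 238.1 CPM in WT and at 44.5, 54.7, 38.6 and 79.6 CPM in db/db, just without overlap because of WT replicate 1. It fell with a log2 fold change of -1.70 (SE 0.26, edgeR adjusted p 9.91e-05) and shares exons with a transcript on the other strand, so its count is uncertain. The kinase gene Akt2 fell with a log2 fold change of -0.52 (SE 0.16, edgeR adjusted p 0.0194), a call lost without WT replicate 4 (0.0873) or db/db replicate 2 (0.0669). The other 8, Irs1, Grb10, Shc1, Pik3r1, Pik3ca, Akt1, Foxo1 and Foxo3, gave no call, and Foxo1 shares exons with a transcript on the other strand. Among them Irs1 was below every WT library in all 4 db/db libraries, with a log2 fold change of -0.39 (edgeR adjusted p 0.178), and shares exons with a gene on the other strand, so its count is uncertain. Grb10 was above every WT library in all 4 db/db libraries, with a log2 fold change of 0.74 (edgeR adjusted p 0.0773), and without WT replicate 3 it passed (0.0357).

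Cell surface partners of the binding proteins gave 2 calls among 4 tested, both higher, beside 15.8% higher among all genes tested. Itgb1, an integrin chain that meets several binding proteins at the membrane, was at 103.7 ± 4.23 CPM in WT and rose to 153.1 ± 9.82 CPM in db/db (± SD over 4 libraries per genotype, log2 fold change 0.56, edgeR adjusted p 0.00215). Lrp1, an endocytic receptor reported to bind IGFBP3, had a log2 fold change of 0.49 (edgeR adjusted p 0.0368), which was lost with DESeq2 (0.0613), with scaling by the library total (0.0645), with the skeletal muscle score (0.715) and when any library but WT replicate 3 and db/db replicate 4 was left out. Tmem219, which shares exons with a transcript on the other strand, and Cd93 gave no call (edgeR adjusted p 0.129 and 0.582).

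The CCN family, whose proteins contain an IGF-binding-like domain, held the widest contrast outside the members. Ccn5 had 0 counts in every WT library and 48, 23, 30 and 18 counts in db/db (edgeR adjusted p 1.24e-05). Its mean in db/db, 10.4 CPM, was at least 8.20-fold higher than WT with the same floor. Ccn2 had 1 to 6 counts in WT and 9 to 20 in db/db and did not pass the filter, but was higher when every gene with a count was tested (edgeR adjusted p 0.0140). Ccn2 shares exons with a transcript on the other strand and is uncertain. Ccn1 had a log2 fold change of 1.29 (SE 0.48, edgeR adjusted p 0.0562), and without WT replicate 2, db/db replicate 1 or db/db replicate 3 it passed (edgeR adjusted p 0.0119, 0.0163 and 0.0375), as it did when every gene with a count was tested (5.62e-05) and with the replicate number as a block (0.00955).

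**Figure D5:**
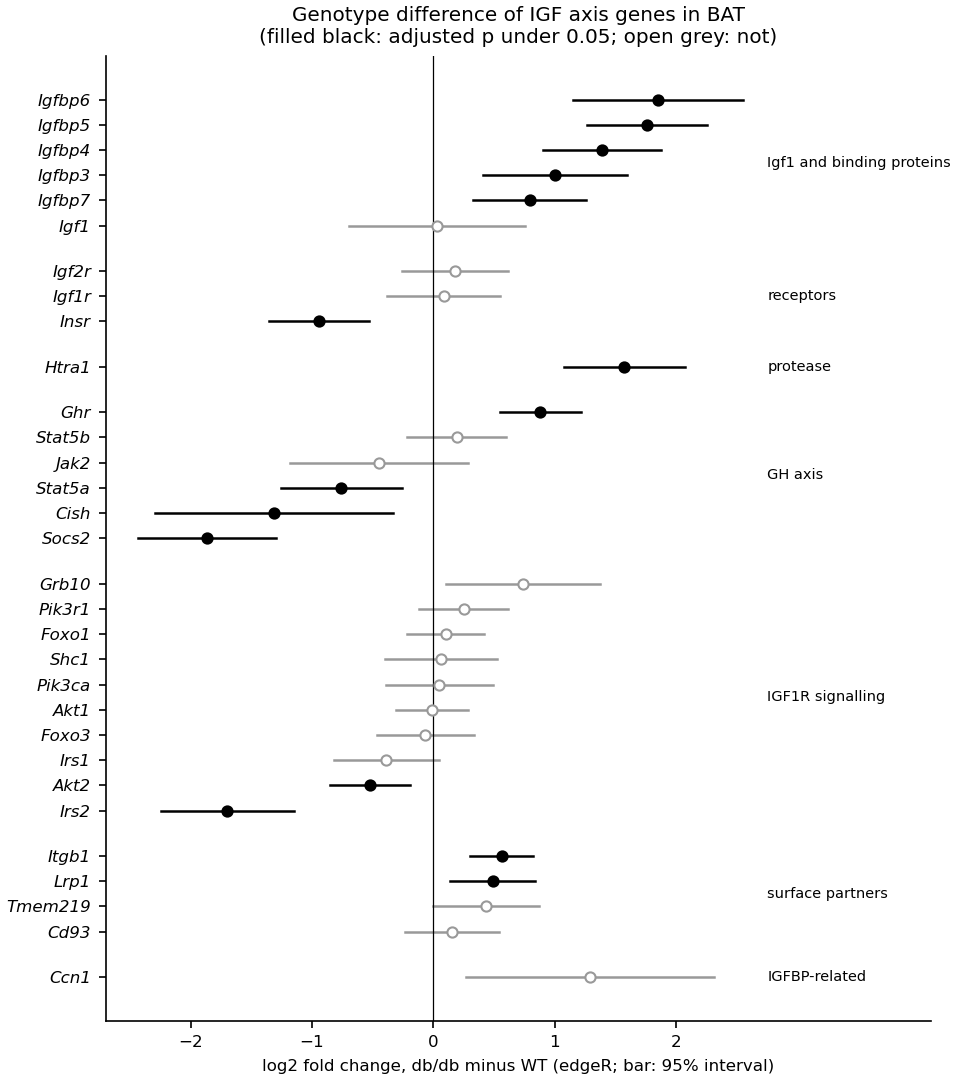
Log2 fold change of db/db against WT (horizontal axis) with its 95% interval for the 6 members and 25 other tested IGF axis genes, grouped by role, with filled black points for an edgeR adjusted p under 0.05 and open grey points for the rest. The 5 binding proteins and Htra1 lie to the right of 0, Igf1 and Igf1r straddle it, and Insr, Socs2 and Irs2 lie to the left. Ccn5, at 0 counts in WT, is not drawn.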

How the data were processed

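Single-end mRNA libraries of BAT RNA were made and sequenced by a commercial service. Per the study's methods, the authors trimmed reads with bbduk, aligned them to mm10 with STAR and counted them per gene with HTSeq-count, whereas the submitters' processing notes name Trimmomatic, HISAT2 and DESeq2 with GRCm38. Raw counts as the authors deposited them were used. Strand use and the treatment of molecular identifiers are not given in the sources used here, so counts may include PCR copies, and the upper limits given for a count of 0 cover counting error only, while the intervals of log2 fold changes include the spread between libraries. The authors' normalised values were not used.

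Of 31053 identifiers, 31011 were paired with a symbol (GENCODE M21). Genes were filtered by filterByExpr in edgeR 4.0.16 (R 4.3.3; minimum count 10, minimum total 15), which left 9264, scaled by TMM and tested by the quasi-likelihood F test with genotype as the only term, with Benjamini-Hochberg adjustment over all genes tested at 0.05. DESeq2 1.42.0, limma-voom (limma 3.58.1), 4 other scalings, 2 other filters, a muscle covariate, a replicate block and leaving out each library were alternatives. CPM are counts scaled to a TMM-adjusted total of 1000000 over the tested genes. Profiles were compared on log2 CPM with a prior count of 2. A count of 0 was read as up to 3 counts. Each other IGF axis list gave the tested genes past the threshold, at most the 4 of largest change, and any gene a small count refers to, while other genes were named after their values were seen. In simulated counts, edgeR recovered 57.5% of the genes given a log2 change of 1 among 9058 tested, and with a log2 change of 2 it recovered 97.9% among 9063, with 7 and 8 false calls. The members, lists and rules were chosen with earlier results of these data known.

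To look for a library deposited more than once, replicates were compared by chi-square. The statistic was 4.20 times its degrees of freedom or more in each pair of a genotype, so no pair was treated as 1 library. Separate samples are bound to exceed counting error, and nothing else is read from this check.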

Additional observations from a re-analysis of the deposited data

Results flagged for a closer look

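In 34 sets of 4 libraries, the highest or lowest value was compared with its neighbours by Dixon's ratio, which by chance marks about 1.7 of them, and 3 were marked. Igfbp7 was at 109.0 CPM in WT replicate 3, far above the other 3 WT libraries and above db/db replicate 3, which together give the overlap of Igfbp7 between the genotypes. Lrp1 was at 117.6 CPM in WT replicate 3, far above the other WT libraries. In db/db, Lrp1 was at 94.1 CPM in replicate 4, far below the other db/db libraries.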

How the results depend on the processing

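The 5 member calls were made under DESeq2, limma-voom, each scaling, each filter and each omission of 1 library (5 in all 8). The replicate numbers did not pair the samples, with correlations of same-numbered deviations from -0.08 to 0.05, where only replicates 1 and 2 correlated best with their own number. With the replicate block, 5 members, 12 other IGF axis genes (6 higher, 6 lower, Ccn1 being gained) and 2557 of all genes were called. Leaving out each library gave 8 to 12 calls among the other IGF axis genes, 4 to 6 higher and 3 to 6 lower, with 3 lower without WT replicate 4. Testing every gene with a count gave 8 higher among 36 tested, Ccn1, Ccn2 and Stc2 being gained. With the muscle covariate, 1 member was called and higher, and 3 other genes were called, 1 higher and 2 lower. With the progenitor and fibroblast covariate, edgeR called 0 members and 1 other gene, 1 higher and 0 lower (2 members, 1 higher and 1 lower, and 2 others at an unadjusted p of 0.05). With the macrophage covariate it called 0 members and 0 others, 0 higher and 0 lower (1 member, lower, and 4 others at an unadjusted p of 0.05). These last covariates were chosen after seeing the data, and among the called genes their fits reversed the log2 fold change of Igfbp7 to -0.33 (fibroblast) and -1.26 (macrophage), of Igfbp4 to -0.20, Htra1 to -0.59 and Stat5a to 0.53 (macrophage), and of Akt2 to 0.11 (fibroblast). Among genes not called, the sign also changed in these fits, as for Jak2 (to 1.30 and 3.45), Cd93 (to -0.61 and -0.85) and Grb10 (to -1.28 with the macrophage covariate). With so little variation left beside genotype, the cause was not tested. Low counts limit the statements on Igfbp2, Igf2, Pappa, Stc2 and Igfals, and exons shared with another gene also limit Igf2. At least 10 counts in every library left Socs2, Cish, Grb10, Ccn1 and Ccn5 untested. With a prior count of 0.5, 1 of the 2 genes nearest to Igfbp6 changed.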
